A study of Homo sapiens with 23 samples.

Results

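The H3K27ac and H3K4me3 libraries of a chromatin immunoprecipitation sequencing (ChIP-seq) series in NCI-H23, an established human non-small cell lung cancer line, were compared where the marks meet. They were chosen by the mark named in the sample titles, 2 replicate libraries for each mark, which makes 4 of the 23 samples of the series. Both marks were precipitated with commercial mouse monoclonal antibodies from formaldehyde cross-linked cells grown in serum-containing medium. A treatment protocol shared by all samples mentions the BET bromodomain inhibitor JQ1 and its solvent DMSO, but no label says which library received either, and no treatment was compared. Nothing in the labels says that replicates are separate cultures, so the spread between them may be technical. Members are peak regions of these 4 lists: 21580 and 22025 H3K4me3 regions in replicates 1 and 2, and 122841 and 100210 H3K27ac regions.

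H3K4me3, trimethylation of lysine 4 of histone H3, is deposited by SET1 and MLL complexes and marks the nucleosomes around active and poised promoters, often those in CpG islands. H3K27ac, acetylation of lysine 27 of the same histone, is deposited by p300 and CBP and marks active promoters and active enhancers. The same lysine can instead be trimethylated by Polycomb repressive complex 2. A residue carries acetylation or methylation but not both, and promoters with H3K4me3 and H3K27me3 are known as bivalent. H3K4me3 peaks stand here for promoters. Their distance to transcription start sites was not analysed, and marker genes of the lung lineage were not examined, since no gene coordinates of the build of the lists were used.

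The H3K4me3 lists were short, strong and alike. They covered 41.5 Mb and 41.4 Mb, with a median region width of 1775.5 bp and 1743 bp and a median −log10 q of 499 and 509. Of the replicate 1 regions 96.6% met a replicate 2 region, and 95.04% did so in the other direction. The H3K27ac lists covered 97.7 Mb and 109.2 Mb, with median widths of 402 bp and 501 bp and a median −log10 q of 4.22 and 5.72, so most of their regions were narrow and weak. Only 57.9% of the H3K27ac regions of replicate 1 met one of replicate 2, and 60.9% did so in the other direction. Read depth is unknown for all libraries, and coordinates below are 1-based positions in the human genome build hg19. Two-sided exact permutation of 2 libraries against 2 cannot give a p under 0.333, so the comparisons below are values with their spread between libraries and without a test.

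H3K27ac was found at most H3K4me3 regions. At least 1 bp was shared by 77.8% of the H3K4me3 replicate 1 regions with H3K27ac replicate 1 and by 82.1% with H3K27ac replicate 2. For H3K4me3 replicate 2 the shares were 76.9% and 81.3%. The mean was 79.5% ± 3.09 (SD between the H3K27ac libraries, n = 2). The longer-covering H3K27ac replicate 2 gave the higher share with either H3K4me3 list, and the choice of H3K4me3 list moved the share less than the choice of H3K27ac list. Counted in bases, 71.8% ± 4.60 (n = 2) of H3K4me3-covered sequence lay under H3K27ac, and 69.8% ± 4.67 (n = 2) of regions were covered over at least 50% of their length. Wilson intervals at the 95% level reached at most 0.556 percentage points to each side of the 4 shares at 1 bp and cover counting error only. When every list was limited to its 20000 strongest peaks, 64.5% of regions had H3K27ac.

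Seen from the acetylation mark, peaks that met H3K4me3 were a minority, but they were wider and stronger in the median than the others and made up most of the strongest peaks. Of the H3K27ac replicate 1 regions 16.1% met H3K4me3 replicate 1, and of those of replicate 2 20.8% did. Those that met it had a median width of 1394 bp against 359 bp for the others in replicate 1, and of 1516 bp against 423 bp in replicate 2. Their median fold enrichment, the authors' value over local background, was 18.5 against 3.42 in replicate 1 and 18.1 against 3.25 in replicate 2. Among the 10000 strongest H3K27ac regions 88.0% of replicate 1 and 85.0% of replicate 2 met H3K4me3 replicate 1. A single H3K27ac region spanned 2 or more H3K4me3 replicate 1 regions in 579 cases in replicate 1 and 650 in replicate 2, with at most 8 and 11 of them in 1 region.

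The share of H3K4me3 regions with H3K27ac rose with their width in every combination of lists. Among regions under 500 bp it was 47.6% ± 4.83 (SD between the H3K27ac libraries, n = 2, as for all shares by width), with 42.7% to 52.4% over the 4 combinations. It was 54.1% ± 5.89 at 500 to under 1000 bp, 81.8% ± 3.54 at 1000 to under 2000 bp, 96.6% ± 1.29 at 2000 to under 4000 bp and 98.98% ± 0.589 at 4000 bp or more. The highest value of the narrowest group lay below the lowest value of the widest, 98.5%. The rise from the narrowest to the widest group was 51.4 ± 4.24 percentage points (n = 2). The first step was small: it was present in each combination, but the range of the narrowest group overlapped that of regions of 500 to under 1000 bp, 49.9% to 58.5%. When every list was limited to its 20000 strongest peaks the rise was 78.3 percentage points. When only sequence within 250 bp of the H3K4me3 summit was searched, the same for regions of all widths, the rise was 50.2 percentage points.

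**Figure D1:**
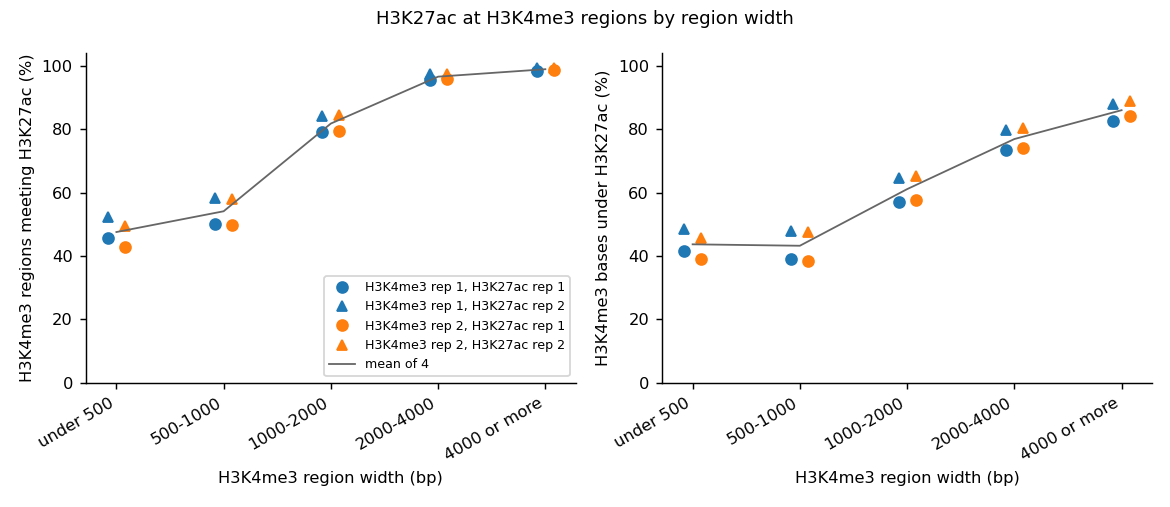
Share of H3K4me3 regions that meet H3K27ac (left, percent) and share of their bases under H3K27ac (right, percent) by H3K4me3 region width in bp. Points are the 4 combinations of libraries and the line is their mean. The share of regions climbs from 47.6% to 98.98%, while the share of bases is flat between the first groups and reaches 86.0% in the widest.

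Width and strength of H3K4me3 went together, with a median −log10 q of 4.96 in the narrowest and 711 in the widest group. Regions were therefore also split by −log10 q into 3 groups of equal size. In the weakest group the share with H3K27ac was 47.6% ± 4.83 under 500 bp and 76.7% ± 1.85 at 2000 to under 4000 bp (n = 2 each). Within the middle group it was 75.9% ± 7.01 at 500 to under 1000 bp and 97.3% ± 1.92 at 4000 bp or more. In the strongest group it was 98.9% ± 0.964 at 1000 to under 2000 bp and 100% ± 0 at 4000 bp or more. The share was higher in wider regions within each group, but the groups did not hold strength equal. In H3K4me3 replicate 1 the median −log10 q still rose with width from 5.08 to 130.3 in the weakest group and from 275 to 582 in the middle one, and was 723 to 739 in the strongest. At similar width the share was higher in stronger regions: at 1000 to under 2000 bp it was 64.4%, 81.0% and 98.9% from the weakest to the strongest group.

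Strength of the acetylation also differed with width. The median fold enrichment of the strongest H3K27ac region met was 11.7 ± 1.09 at H3K4me3 regions under 500 bp, 8.48 ± 0.655 at 500 to under 1000 bp, 16.0 ± 0.131 at 1000 to under 2000 bp, 36.5 ± 2.04 at 2000 to under 4000 bp and 52.3 ± 3.75 at 4000 bp or more (n = 2 each). It was lowest not in the narrowest group but in the next one. The H3K27ac regions at the narrowest H3K4me3 regions were broad, with a median width of 1506.5 bp ± 296 against 850.3 bp ± 123 at 500 to under 1000 bp. Several H3K27ac regions in 1 H3K4me3 region were rare in the narrowest group (0.685% ± 0.0393 of regions with H3K27ac) and frequent in the widest (41.2% ± 6.39).

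H3K27ac ran past some H3K4me3 edges and stopped short of others. Over the regions with H3K27ac, 44.1% ± 6.49 of edges (n = 2) lay under an H3K27ac peak that went on past the edge, with 39.5% for H3K27ac replicate 1 and 48.7% for replicate 2. Neither edge was passed in 39.5% ± 8.28 of regions, a single edge in 32.9% ± 3.57 and both in 27.6% ± 4.71. Where an edge was not passed, the acetylated stretch ended a median of 257 bp ± 34.1 inside it. Where an edge was passed, the median extension was 359 bp ± 7.07, with the middle of the distribution between 128 bp and 1125 bp (25th and 75th percentiles) and a 90th percentile of 3296 bp. Extension was measured to the end of the H3K27ac peak, so long values can include sequence under further H3K4me3 regions. With every edge counted and edges not passed set to 0, the median extension was 0 bp. Joining H3K27ac peaks within 500 bp of each other raised the median of passed edges to 659 bp, so its size depended on this choice.

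Most edges had the same state in both H3K27ac libraries. At the 15883 regions of both H3K4me3 lists with H3K27ac in both lists, 32.0% of 31766 edges were passed in both H3K27ac lists and 49.4% in neither. Passing in replicate 1 only was seen at 3.92% of edges and in replicate 2 only at 14.7%. At the 10173 edges passed in both, the median extension was 371 bp in replicate 1 and 542 bp in replicate 2, and the median difference at an edge was 186 bp. Extension was often uneven. In 2223 regions the sides differed by at least 500 bp in both lists, and the longer side was the same in both for 1983 of them (89.2%).

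To set the error of an H3K4me3 edge, which does not cover the error of H3K27ac peak ends, the other H3K4me3 library was measured at the same regions. It passed 49.3% ± 4.50 of edges, but by a median of 48 bp ± 2.83 only (SD between target libraries, n = 2). H3K27ac passed 29.7% ± 5.70 of these edges by at least 200 bp, against 4.77% ± 0.602 for the other H3K4me3 library. By at least 1000 bp it passed 12.5% ± 2.61, against 0.926% ± 0.00902. H4K5acK8ac, the doubly acetylated histone H4 tail, passed 31.8% ± 3.87 by at least 200 bp and 7.62% ± 1.45 by at least 1000 bp. Past 1000 bp the H3K27ac libraries had 10.7% and 14.3% and the H4K5acK8ac libraries 6.60% and 8.65%. These regions were chosen for carrying H3K27ac and not for H4K5acK8ac, whose lists cover 64.3 Mb and 71.7 Mb, so the values are a description and do not rank the marks. H3K4me1, monomethylation of the same lysine that borders promoters and marks enhancers, passed 63.7% ± 19.3 by at least 200 bp, with its libraries at 50.1% and 77.4%.

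Coverage profiles were made over regions of at least 1000 bp with H3K27ac in both lists. They count any peak at a position, also one separate from the peak at the region. H3K27ac covered 82.3% ± 4.52 of positions 500 bp inside an edge, 61.8% ± 8.38 at 200 bp inside, 40.4% ± 7.87 just outside it, 28.0% ± 4.84 at 200 bp and 17.0% ± 0.699 at 1000 bp outside (n = 2 each). At 5000 bp outside H3K27ac still covered 12.7% ± 0.879. Far coverage is not all extension past the edge: at regions of all widths, H3K27ac passed only 2.73% ± 1.01 of edges by at least 5000 bp. The other H3K4me3 library fell from 96.8% ± 0.754 at 200 bp inside to 5.31% ± 1.01 at 200 bp outside. H3K27ac thus fell more gradually over the edge than H3K4me3. The edges were set by H3K4me3 peaks, so the drop of H3K4me3 there follows from this choice. H4K5acK8ac also fell gradually, from 58.2% ± 2.77 at 200 bp inside to 29.1% ± 2.76 at 200 bp outside. H4K5acK8ac was at 9.86% ± 0.759 at 1000 bp and 7.32% ± 0.488 at 5000 bp outside, lower than H3K27ac. Its lists cover 64.3 Mb and 71.7 Mb, against 97.7 Mb and 109.2 Mb for H3K27ac, so these values do not rank the marks either. H3K4me1 had its highest coverage around the edge, 81.8% ± 13.4 at 200 bp inside, and was lower at 500 bp inside (50.4% ± 19.1).

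**Figure D2:**
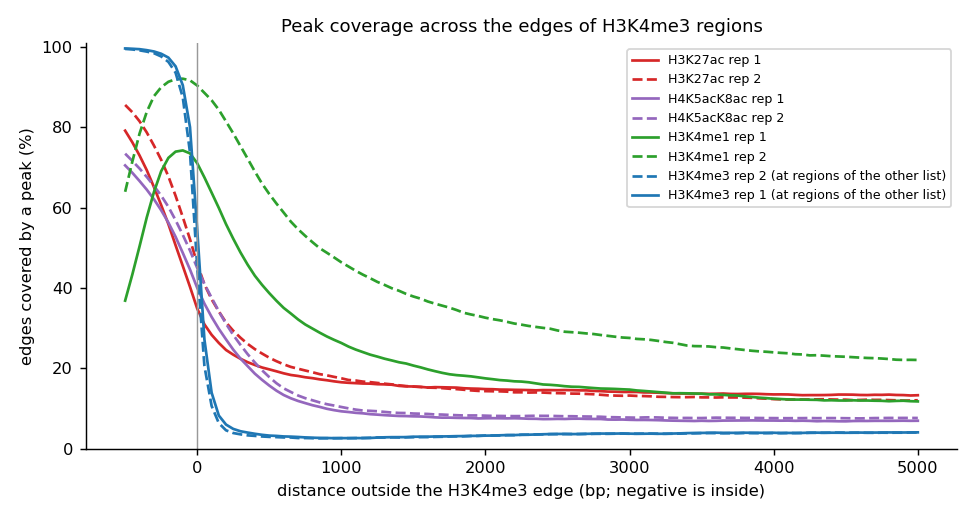
Percent of H3K4me3 edges covered by a peak at each distance (bp) from the edge, inside (negative) and outside (positive), for regions of at least 1000 bp with H3K27ac in both lists. Lines are libraries, averaged over the H3K4me3 lists that set the edges; each H3K4me3 library is measured at the regions of the other one. H3K27ac falls from 82.3% at 500 bp inside to 17.0% at 1000 bp outside, and the H3K4me3 lines drop at the edge.

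Edges behaved differently at narrow and wide regions. Of the H3K4me3 regions under 500 bp with H3K27ac, 70.7% ± 1.49 lay inside the acetylated stretch with both edges passed, and 10.1% ± 0.193 had no edge passed (n = 2 each). At 1000 to under 2000 bp 19.2% ± 4.27 had both edges passed and 48.98% ± 7.77 none. At 4000 bp or more the values were 40.5% ± 8.48 and 22.8% ± 7.49. The share of edges passed was therefore lowest in the middle group, 35.1% ± 6.02, against 80.3% ± 0.841 in the narrowest and 58.9% ± 7.98 in the widest. The median extension past a passed edge followed the same order, with 872 bp ± 264 in the narrowest group, 273 bp ± 2.47 in the middle one and 633 bp ± 85.7 in the widest.

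The 5 regions with the longest extension, ranked by the shorter value of the H3K27ac lists, had H3K27ac in both lists running at least 26301 bp past an edge. These lengths are not all free of H3K4me3, since an H3K27ac peak can run on across further H3K4me3 regions. On chromosome 20, the region from 56292682 to 56294726 was passed by 38392 bp in H3K27ac replicate 1 and 39413 bp in replicate 2, towards lower coordinates. This stretch includes the whole of the H3K4me3 region named next. A neighbour at 56280609 to 56289330 was passed by 26319 bp and 27340 bp on the same side and met an H3K27ac peak with the same fold enrichment, 55.1 in replicate 1 and 43.7 in replicate 2, so these entries are not independent. On chromosome 22, the region from 30646501 to 30654476 was passed by 30611 bp and 64477 bp, and the libraries differed by more than at any other of the 5. The region on chromosome 11 from 123324954 to 123329468 was passed by 26380 bp and 37071 bp. On chromosome 18, the region from 3601682 to 3602437 was only 756 bp wide, with an H3K4me3 fold of 3.85 and 7.29, and was passed by 26301 bp and 31418 bp. All 5 met BRD2 and the 4 H4 acetylation marks in both lists, and none met H3K27me3. Of all regions with H3K27ac in both lists, 66.4% and 84.0% met BRD2 and 3.10% and 5.48% met H3K27me3. Each H4 acetylation list was met by 68.5% to 98.7% of them, so these states were common there and not particular to the 5.

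The 5 widest H3K4me3 regions, ranked by the narrower of the 2 lists, were acetylated over nearly their whole length. One lay on chromosome 1 from 8075141 to 8088620, the next on chromosome 10 from 8090151 to 8104001, and the others on chromosome 18 at 3446646 to 3459752, on chromosome 17 at 79474435 to 79487137 and on chromosome 7 at 5457576 to 5470134. With the lists joined they were 12559 bp to 13851 bp wide. H3K27ac covered 97.9% to 100% of them in replicate 1 and 100% in replicate 2. Their H3K27ac fold enrichment lay between 53.9 and 89.4 in replicate 1 and between 49.8 and 71.4 in replicate 2. In the order given, H3K27ac passed the edge with the larger shared extension by 2860.0 bp, 1462 bp, 915 bp, 698 bp and 511 bp in replicate 1 and by 13595 bp, 1374 bp, 949 bp, 644 bp and 768 bp in replicate 2. All 5 met BRD2 and none met H3K27me3 in either list. Of all regions of 4000 bp or more with H3K27ac in both lists, 85.3% and 95.5% met BRD2. H3K27me3 was met by 2.70% and 3.78% of them, so these states are not particular to the 5.

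Summits, the points of highest signal in a peak, lay apart by more than the error between libraries. At the 15883 regions with both marks in all lists, the median distance between the H3K4me3 summits of the libraries was 26 bp, with 92.5% under 200 bp. Between the H3K27ac libraries it was 48 bp, with 75.7% under 200 bp. From H3K4me3 to H3K27ac it was 145 bp and 149 bp from H3K4me3 replicate 1, and 140.0 bp and 152 bp from replicate 2, with 54.0% to 56.7% under 200 bp. Every one of the 4 distances between marks exceeded both distances between libraries of 1 mark. Over all regions with H3K27ac, 55.3% ± 0.941 of offsets were under 200 bp, 35.5% ± 0.299 were 200 to under 1000 bp and 9.18% ± 1.24 were 1000 bp or more (n = 2 each). The offsets had a narrow centre and a shoulder on both sides, at about 500 bp in the plot of summit offsets. The distances between the H3K27ac libraries had a lower shoulder at the same place, with 1.84% of regions at 300 to 400 bp and 2.15% at 400 to 500 bp on the side of negative offsets.

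**Figure D3:**
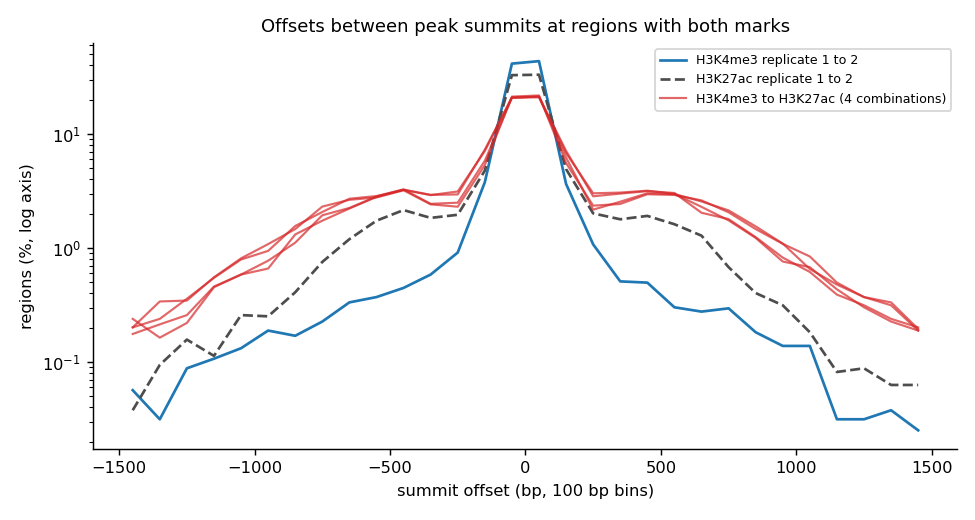
Distribution of signed summit offsets (bp, 100 bp bins; percent of regions on a log axis) at the 15883 regions with both marks in all lists. Red lines are the 4 combinations of an H3K4me3 and an H3K27ac library; the blue and the dashed line are replicates of 1 mark. The red lines lie above the others at offsets past 200 bp on both sides.

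An offset to one side was kept between libraries. Of the 5405 regions with an offset of at least 200 bp in both same-numbered pairs of lists, 5043 (93.3%) had the H3K27ac summit on the same side of the H3K4me3 summit. Neither direction along the chromosome prevailed, with 50.2% ± 0.127 of such offsets towards lower coordinates (n = 2). Nearly all H3K27ac summits, 92.3% ± 0.965, lay inside the H3K4me3 region, and the H3K4me3 summit was itself under H3K27ac in 97.0% ± 0.289 of regions with the mark.

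At the regions with both marks in all lists, summit distance grew with width beyond the error of the libraries. Over all regions with H3K27ac it was not lowest in the narrowest group. There it was 127.5 bp ± 7.07 under 500 bp, 78.9 bp ± 2.65 at 500 to under 1000 bp and 91.3 bp ± 0.354 at 1000 to under 2000 bp (n = 2 each). Nearly all H3K27ac summits lay inside the H3K4me3 region, so its width also limits the distance. The values that follow are from the regions with both marks in all lists. At regions of 1000 to under 2000 bp the summit distance was 88 bp in the mean of the 4 combinations (85 bp to 92 bp), against 22 bp between H3K4me3 libraries and 49 bp between H3K27ac libraries. At 2000 to under 4000 bp it was 245 bp (216.5 bp to 266 bp), against 25 bp and 45 bp. At 4000 bp or more it was 687 bp (605 bp to 757 bp), against 37 bp and 75 bp. Regions under 500 bp had 65 bp (57 bp to 78 bp), against 33 bp and 42 bp. In the widest regions the acetylation maximum was thus the farthest from the methylation maximum, while the median distance between libraries of 1 mark was at most 75 bp.

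H3K4me3 regions without H3K27ac made up a weaker and narrower class. Of the 20506 regions called in both H3K4me3 lists, 3180 (15.5%, Wilson interval 15.0% to 16.0%) met no peak in either H3K27ac list, 1443 met one in 1 list and 15883 (77.5%) in both. Of the 1443, 277 met H3K27ac replicate 1 only and 1166 replicate 2 only. The median width was 816 bp without H3K27ac, 1072 bp with it in 1 list and 2181 bp with it in both. The median H3K4me3 fold enrichment was 12.9, 28.8 and 75.4 in replicate 1 and 13.8, 31.5 and 84.4 in replicate 2. With lists limited to their 20000 strongest peaks 31.5% had no H3K27ac, and 24.7% when at least 50% of the region had to be covered.

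Most regions without H3K27ac were firm H3K4me3 calls. In both H3K4me3 lists the −log10 q was at least 5 for 2790 of them (87.7%) and at least 100 for 1092 (34.3%). These shares were lower than in the other classes. They were 93.3% and 57.2% with H3K27ac in 1 list, and 97.0% and 86.2% with it in both. The share without H3K27ac did not fall steadily with strength: it was 40.8% at a −log10 q under 5, 46.0% at 5 to under 20, 41.1% at 20 to under 100, 28.8% at 100 to under 300, 12.1% at 300 to under 500 and 0.716% at 500 or more. By width it was 51.2% under 500 bp, 41.5% at 500 to under 1000 bp, 15.1% at 1000 to under 2000 bp, 2.36% at 2000 to under 4000 bp and 0.599% (9 of 1502 regions) at 4000 bp or more.

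H3K27me3, the Polycomb mark on the same lysine, was much more frequent where H3K27ac was missing. It was met by 36.1% of regions without H3K27ac in H3K27me3 replicate 1 and by 45.0% in replicate 2, against 3.10% and 5.48% of regions with H3K27ac in both lists. Over all 20506 regions the shares were 9.57% and 13.4%. The difference was 36.2 ± 4.58 percentage points (SD between H3K27me3 libraries, n = 2), and regions with H3K27ac in 1 list were in between, at 22.3% and 31.3%. With every list limited to peaks of a −log10 q of at least 5 it was 16.5 percentage points, and with the 20000 strongest peaks 7.76. These limits act on the H3K4me3, H3K27ac and H3K27me3 lists together, and a limit on H3K27me3 alone was not tested.

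Most regions of 1000 to under 4000 bp without H3K27ac met a peak of the full H3K27me3 lists. The median −log10 q of these lists was 3.02 and 2.81, so many of their peaks were weak. Shares by width were not computed with stricter lists. Among regions without H3K27ac the share with H3K27me3 was 14.5% ± 2.33 under 500 bp (637 regions), 28.8% ± 4.86 at 500 to under 1000 bp (1383), 66.3% ± 9.42 at 1000 to under 2000 bp (961) and 81.6% ± 13.4 at 2000 to under 4000 bp (190; n = 2 libraries each). At the same widths regions with H3K27ac in both lists had 0.235% ± 0, 1.19% ± 0.530, 6.29% ± 2.56 and 4.05% ± 1.63. The difference was present at each of these widths. Within 250 bp of the H3K4me3 summit the overall difference was 31.9 percentage points.

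BRD2, a BET protein whose bromodomains bind acetylated histone tails, was rarely called at H3K4me3 regions without H3K27ac. Its replicates were met by 1.76% and 3.93% of them, against 66.4% and 84.0% of regions with H3K27ac in both lists, and by 52.3% and 67.6% of all 20506 regions. The difference was 72.4 ± 10.9 percentage points (n = 2), and 45.1 with peaks of a −log10 q of at least 5. Many BRD2 calls were weak: 64.7% of the peaks of replicate 1 and 28.1% of those of replicate 2 had a q above 0.05. With every list limited to peaks with a q of at most 0.05, the difference was 66.0 percentage points. Width made little difference where H3K27ac was missing: the share was 2.51% ± 0.888 under 500 bp and 3.16% ± 0.744 at 2000 to under 4000 bp. With H3K27ac in both lists it was 35.9% ± 12.5 and 82.0% ± 11.4 at these widths, and 90.4% ± 7.21 at 4000 bp or more.

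H4 tail acetylation was less frequent but not missing in the class without H3K27ac. H4K5acK8ac was met by 25.4% and 43.7% of these regions in its replicates, against 98.3% and 98.7% of regions with H3K27ac in both lists and 85.2% and 89.3% of all. H4K5ac was met by 32.4% and 30.8%, against 97.2% and 96.9% (all regions 85.7% and 85.1%). H4K12ac had 39.3% and 37.7%, against 93.5% and 93.1% (all 83.2% and 82.6%). H4K8ac had 27.7% and 13.1%, against 90.6% and 68.5% (all 78.2% and 57.3%), with its libraries far apart. The same H4 acetylation mark was called in both of its lists at 1265 of the 3180 regions (39.8%), and 510 of them (16.0% of the class) also had H3K27me3 in both lists. In the whole class 1061 regions (33.4%) had H3K27me3 in both lists. These combined counts are given for this class only, so they have no share over all regions beside them.

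Other methylation marks also differed between the classes. H3K36me3, which SETD2 deposits along transcribed gene bodies, was met by 1.45% and 1.10% of regions without H3K27ac and by 23.3% and 22.6% of those with it in both lists (all regions 18.4% and 17.8%). With H3K27ac its share rose from 6.24% ± 0.499 under 500 bp to 62.3% ± 1.29 at 4000 bp or more (n = 2 each). Without H3K27ac it was 2.28% ± 0.111 under 500 bp and 0.263% ± 0.372 at 2000 to under 4000 bp, where regions with H3K27ac had 29.8% ± 0.433, so the gap between the classes was small in narrow regions and large in wide ones. H3K9me3, the mark of constitutive heterochromatin, was met by 8.71% and 9.65% without H3K27ac and by 2.54% and 3.12% with it (all 3.56% and 4.18%). H3K4me1 was met by 54.3% and 76.3% without H3K27ac and by 91.9% and 98.0% with it (all 84.7% and 94.2%). At 1000 to under 2000 bp its shares were 87.3% ± 12.6 and 92.6% ± 6.76, and at 2000 to under 4000 bp 95.3% ± 6.70 and 97.95% ± 2.40, so at these widths the classes differed by less than the spread between libraries.

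**Figure D4:**
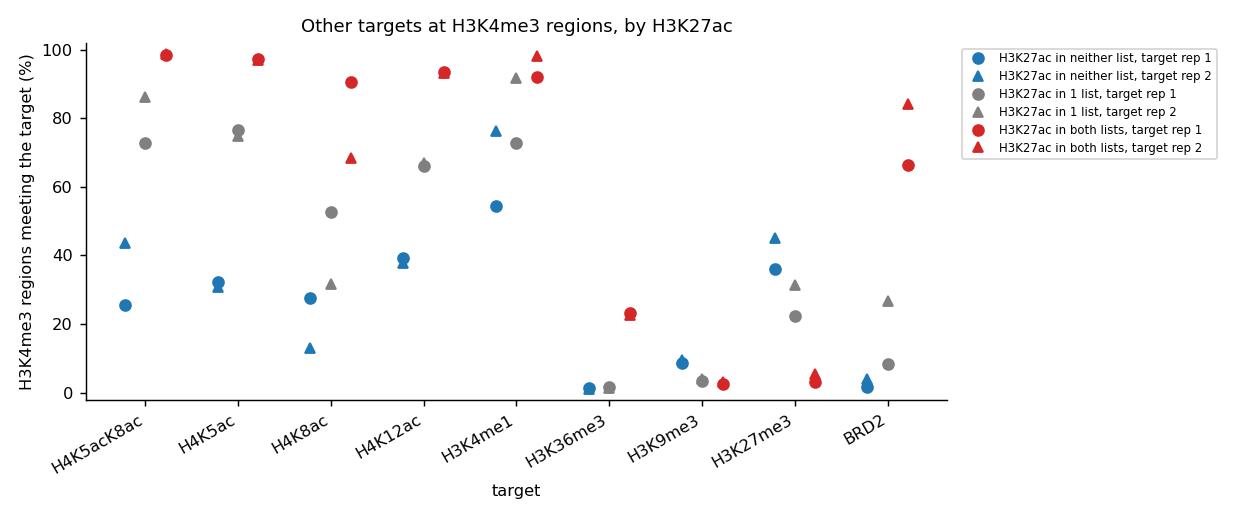
Percent of H3K4me3 regions that meet each other target, for regions with H3K27ac in neither list (3180), in 1 list (1443) and in both lists (15883). Circles and triangles are replicates 1 and 2 of the target. BRD2 and the H4 acetylation marks rank in the order both, 1, neither, and H3K27me3 and H3K9me3 in the opposite order.

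**Figure D5:**
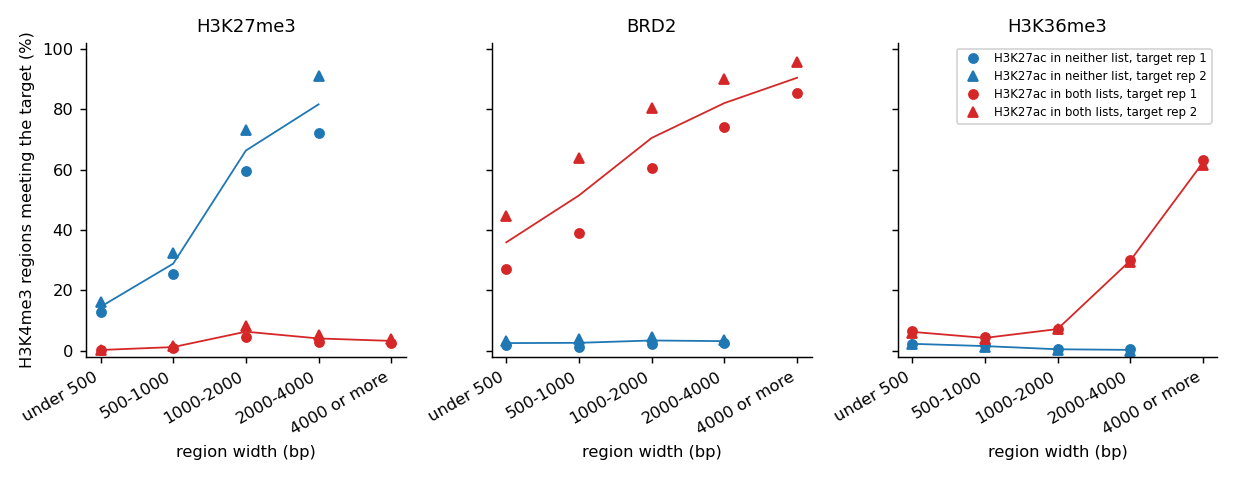
Percent of H3K4me3 regions that meet H3K27me3, BRD2 and H3K36me3 by region width in bp, for regions with H3K27ac in neither list (blue) and in both lists (red); points are replicates of the target, lines their mean, and groups under 50 regions are left out. H3K27me3 reaches 81.6% in the regions without H3K27ac, and BRD2 and H3K36me3 reach 90.4% and 62.3% in those with it.

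The 5 strongest regions without H3K27ac, ranked by the lower −log10 q of the H3K4me3 lists, had a lower −log10 q of 675 to 700.4, against a median of 625 in regions with H3K27ac in both lists. The strongest lay on chromosome 14 from 73358523 to 73361982 and the next on chromosome 2 from 18059077 to 18061131. The others lay on chromosome 14 at 58617941 to 58619832 and on chromosome 3 at 112929967 to 112931768 and at 57198073 to 57199752. In that order, the H3K4me3 fold enrichment was 97.4, 93.8, 71.5, 82.9 and 96.6 in replicate 1 and 98.5, 104, 77.9, 92.2 and 102 in replicate 2. All 5 met H3K27me3 and H3K4me1 in both lists and BRD2 in neither. Of the 76 regions without H3K27ac at a −log10 q of 500 or more, 65.8% and 89.5% met H3K27me3. H3K4me1 was met by 98.7% and 100% of the 76, and BRD2 by 3.95% in each list. The first met no H4 acetylation peak in any of the 8 lists, and the second met H4K5acK8ac, H4K5ac and H4K12ac in both lists.

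The 5 widest regions without H3K27ac were 4180.0 bp to 5398 bp wide. The widest lay on chromosome 18 from 55100960 to 55106357, followed by chromosome 6 at 99279220 to 99284229, chromosome 4 at 134069850 to 134074682, chromosome X at 139585214 to 139589475 and chromosome 12 at 111471004 to 111475183. Their H3K4me3 fold enrichment was 84.6, 57.0, 31.1, 42.7 and 66.0 in replicate 1 and 88.4, 57.4, 29.7, 44.3 and 63.0 in replicate 2. H3K27me3 was met in both lists on chromosomes 6, X and 12, in 1 list on chromosome 18 and in neither on chromosome 4. The region on chromosome 4 met no peak of any target other than H3K4me3. None of the 5 met BRD2 or H3K36me3. In the whole class without H3K27ac, BRD2 was met by only 1.76% and 3.93% of regions and H3K36me3 by 1.45% and 1.10%.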

How the data were processed

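ChIP-seq peak lists of NCI-H23 cells, 1 per library and 10 columns without header, were used as deposited. BWA, MACS2 and build hg19 are named in the submitters' processing notes, with no versions. Settings, control and filters are not given in the sources used here. Fold enrichment is the authors' ratio to local background, and the −log10 p and −log10 q are the authors' values; they were used for description, ranking and filtering inside 1 list. Lists reach down to −log10 p of 2.00. The deposited summit offset gave summit positions. Read depth is unknown.

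Groups came from sample titles. Overlap meant at least 1 bp. Values involving H3K4me3 and H3K27ac were computed for the 4 combinations of lists, and the SD is between the 2 H3K27ac libraries. The summit of the strongest overlapping H3K27ac peak was used. Coordinates are 1-based hg19. The tools were pandas 2.3.3, numpy 2.4.6 and scipy 1.17.1 under Python 3.11.15, with matplotlib 3.10.9 for plots. Tested on a simulated list set against 15913 H3K4me3 replicate 1 regions, the functions returned the simulated share met, share of edges passed, median extension and median offset with a gap of 0. Named regions are the 5 strongest and 5 widest without H3K27ac, the 5 with the longest extension and the 5 widest. Members, groups and rules were chosen with earlier results of these data known. Planned gene lists and cell type markers were not used, as the gene table given is of another build. Alternatives are listed in the closing section.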

Additional observations from a re-analysis of the deposited data

How the results depend on the processing

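Of the main values under the alternatives, 83 moved by less than 1 SD between libraries (or stayed within the Wilson interval) and 28 moved by more. None changed sign, but only the rise with width and the H3K27me3 and BRD2 differences could do so. An SD from 2 libraries is itself uncertain, and for most values leaving out a library cannot move them past it. Summit windows, leaving out H3K27me3 libraries and all settings for BRD2 and for single regions were chosen after seeing the data. Under a minimum −log10 q of 5, the rise with width was 63.7 percentage points, the median extension 345.5 bp, the share without H3K27ac 18.2%, and the differences in H3K27me3 and BRD2 16.5 and 45.1 percentage points. With lists limited to their 20000 strongest peaks, the share with H3K27ac was 64.5% (64.1% of bases), the rise 78.3 percentage points, the extension 378 bp, the summit offset 167 bp, the share without H3K27ac 31.5% and the H3K27me3 difference 7.76 percentage points; fewer peaks are compared in both settings. With at least 50% covered, 69.8% had H3K27ac and 24.7% had none. Stitching H3K27ac peaks gave an extension of 659 bp; stitching both marks gave 549.8 bp, an offset of 155 bp and a rise of 56.3 percentage points. The extension was 0 bp over all edges, the offset 125.5 bp to the nearest summit and 146.5 bp on autosomes.

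Leaving out 1 library gave 16.5% to 21.2% without H3K27ac, 77.3% to 81.7% with it, a rise of 48.4 to 54.4 percentage points, 68.6% to 75.1% of bases, 39.5% to 48.7% of edges, an extension of 354 bp to 364 bp, an offset of 144.5 bp to 146 bp, and differences of 31.8 to 39.5 (H3K27me3) and 64.6 to 80.1 (BRD2) percentage points. With the replicate block, that is, same-numbered libraries only, 20.5% had no H3K27ac, the H3K27me3 difference was 29.5 percentage points and the offset 147.5 bp. The block moved no other main value by more than 1 SD. In the block, regions came from 1 H3K4me3 list and had to lack H3K27ac in 1 list only. Leaving out an H3K4me3 or H3K27ac library also drops 1 of the lists required. Shares without H3K27ac and class differences from these settings are thus not the same measure as the main values. For the same regions, absence from 1 H3K27ac list is never rarer than absence from both. Replicate numbers share no stated origin, and the deviations of the marks in peak number per 100000 bp correlated at 0.0486. All 10 named regions without H3K27ac stayed so in every setting run for them, but only stitching H3K27ac peaks could have changed this. The other settings only remove H3K27ac peaks or require more overlap, so they could not have given these regions H3K27ac. Unknown depth limits all list lengths and weak peaks.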

Other observations

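Regions without H3K27ac were unevenly spread over the chromosomes. Their share of the H3K4me3 regions was 5.27% on chromosome 19 (77 of 1460; Wilson interval 4.24% to 6.54%), 6.63% on chromosome 17 (77 of 1161) and 8.48% on chromosome 22 (39 of 460). It was highest on chromosome 18 with 26.3% (93 of 353; 22.02% to 31.2%), chromosome 4 with 24.4% (192 of 788) and chromosome 8 with 23.3% (181 of 778). The median width of H3K4me3 regions was 1888 bp, 2075 bp and 1965 bp on chromosomes 19, 17 and 22. It was lower on chromosomes 18, 4 and 8, with 1815 bp, 1820 bp and 1801 bp. Whether the spread over chromosomes goes with width was not tested. Copy number was not examined.

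Few of these regions lay near an H3K27ac peak. The nearest H3K27ac peak was a median of 64650.5 bp away in replicate 1 and 53616 bp in replicate 2. It lay within 1000 bp for 3.84% and 4.40% of them, and at 50000 bp or more for 55.7% and 51.4%. The regions were chosen for not meeting H3K27ac, and no distances of a comparison set are given, so these distances have no reference. Of the 3180 regions, 728 (22.9%) met neither an H3K27me3 peak nor an H4 acetylation peak in any list, and 16 met BRD2 in both lists. Both counts are given for this class only, without a share over all H3K4me3 regions.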
